A study of Mus musculus with 18 samples.

Results

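Of the 18 RNA sequencing libraries of mouse testis germ cells, 11 with abundant ribosomal RNA-derived signal were compared as 2 sets that differ in a spermatid locus. The sets were chosen by measured values and not by the labels. A library had to hold more than 100 FPKM (sequenced fragments divided by transcript length and library size, so levels can be compared between loci) of AY036118, a noncoding locus derived from ribosomal RNA. It was then called rich where 1700027A15Rik, a noncoding locus overlapping Tnp1, reached 500 FPKM, and free where that locus was below 1 FPKM. The rule gave 5 rich libraries (plpSC replicate 3, pacSC replicate 3, rST replicates 2 and 3, elST replicate 2) and 6 free ones (priSG-A replicates 1 and 2, plpSC replicates 1 and 2, rST replicate 1, elST replicate 1). A locus entered the comparison when 3 of the 11 libraries held it at 1 FPKM or above, as 3634 of 13218 loci did.

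All groups came from testes of male ICR mice, with no allele or treatment named in the labels, and the cells were sorted by size with STA-PUT velocity sedimentation. The labelled ages were postnatal day 6 for priSG-A, 14 for plpSC, 21 for pacSC, 35 for rST and 56 for elST. The labels leave the type names unexplained. ST is a common short form for spermatids, SC for spermatocytes and SG for spermatogonia, and that reading gives the classes "spermatid" (rST, elST) and "earlier" (priSG-A, plpSC, pacSC). No label says whether numbered libraries came from separate animals or preparations, so a p-value here covers spread among libraries that could be technical repeats.

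Spermatogonia divide by mitosis, spermatocytes go through meiosis, and the haploid spermatids then condense their nucleus into that of a sperm. Tnp1 encodes a transition protein that takes the place of histones in condensing spermatids, so its RNA marks the haploid phase. The testis transcribes an unusually large number of long noncoding loci, many of them known only as complementary DNA clones from adult testis. The mouse reaches its first round spermatids only after the age on the plpSC label.

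Since the 2 rule loci made the sets, their values describe the choice and carry no test. 1700027A15Rik (chr1:72984844-73025507, plus strand, antisense to Tnp1 and sharing exon sequence with it) stood at 874, 1195, 4539, 3175 and 875 FPKM in the rich libraries, always given here in the order plpSC replicate 3, pacSC replicate 3, rST replicates 2 and 3, elST replicate 2. Because the named library kit keeps no record of strand, fragments from exons shared by the locus and Tnp1 cannot be told apart. Its lowest, median and highest levels in the 6 free libraries were 0, 0 and 0.57 FPKM, the highest being that of elST replicate 1. Just inside the thresholds lay plpSC replicate 3 and elST replicate 2 on one side and elST replicate 1 on the other. Just outside lay priSG-A replicate 3, with 11.8 FPKM of 1700027A15Rik and 12910 FPKM of AY036118. PacSC replicates 1 and 2 and elST replicate 3 held 75.8, 84.9 and 73.04 FPKM of 1700027A15Rik but 7.25 to 7.44 FPKM of AY036118, and the 3 priSG-B libraries (postnatal day 9) held at most 0.0708 FPKM and 23.03 to 36.2 FPKM.

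**Figure D1:**
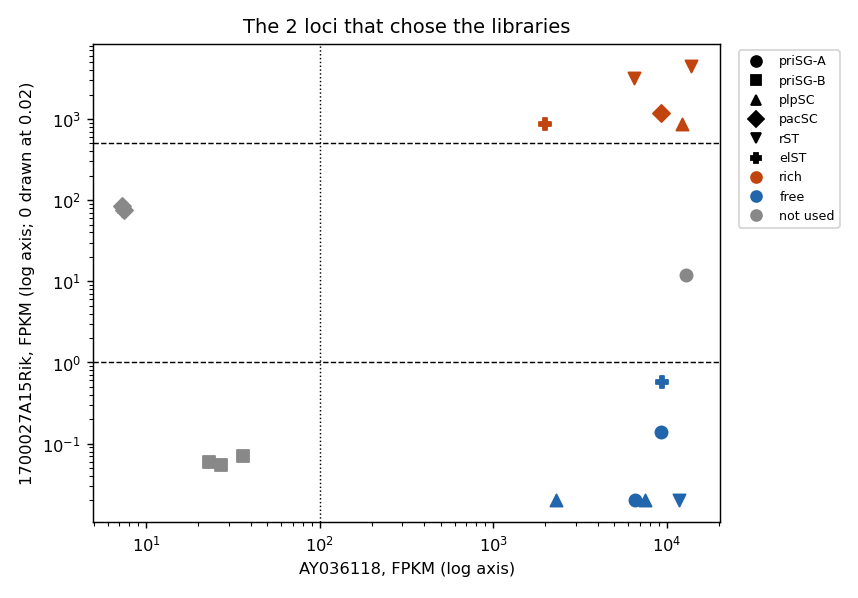
Level of AY036118 (x axis, FPKM, log scale) against 1700027A15Rik (y axis, FPKM, log scale, 0 drawn at the lowest mark) in all 18 libraries, 1 point each, with shape for the label, colour for the set and lines at the thresholds. The 5 rich libraries sit between 874 and 4539 FPKM of 1700027A15Rik, the 6 free ones between 0 and 0.57, and priSG-A replicate 3 between them at 11.8.

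AY036118 itself (chr17:39847113-39848035, minus strand) did not separate the sets. It stood at 12221, 9242, 13911, 6509 and 1998 FPKM in the rich libraries and at 2307, 8432 and 11750 FPKM (lowest, median, highest) in the free ones. Labels and sets crossed: 3 of 5 rich and 2 of 6 free libraries were labelled as spermatids. The libraries labelled plpSC replicate 3 and pacSC replicate 3 were rich, and those labelled rST replicate 1 and elST replicate 1 were free, so type names below are labels only. Across the 3634 loci, Pearson's r of log2(FPKM + 1) was 0.87 to 0.96 in the 10 pairs of rich libraries and 0.89 to 0.97 in the 15 pairs of free ones. It was -0.07 to 0.18 in the 30 pairs that cross the sets. These are descriptions across loci, which are not independent, and the loci were filtered in the same libraries. In libraries of bulk RNA, fewer cells of a type and less RNA per cell cannot be told apart.

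The sets stood far apart across the noncoding loci, mostly through loci that were high in the rich libraries and near 0 in the free ones. All rich libraries lay above all free ones at 1991 loci (54.8% of the 3634) and below all of them at 877 (24.1%), and at 766 the sets overlapped. A locus that passed the filter only through the rich libraries had to differ, so these shares describe the sets and support nothing about any group of loci. The median difference of set medians in log2(FPKM + 1), a scale that shrinks differences between low levels, was 1.19 over all kept loci, 2.37 over the higher and -1.17 over the lower loci. With a gap of at least 4-fold in FPKM + 1 between the nearest libraries of the 2 sets, 753 loci were higher (20.7%) and 29 lower (0.798%). Among the 1991 higher loci, 1665 were under 1 FPKM in every free library, 426 were listed at 0 in all of them and 420 reached 10 FPKM in every rich library. Among the 877 lower loci, 681 were under 1 FPKM in every rich library, 11 were listed at 0 there and 53 reached 10 FPKM in every free library.

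**Figure D2:**
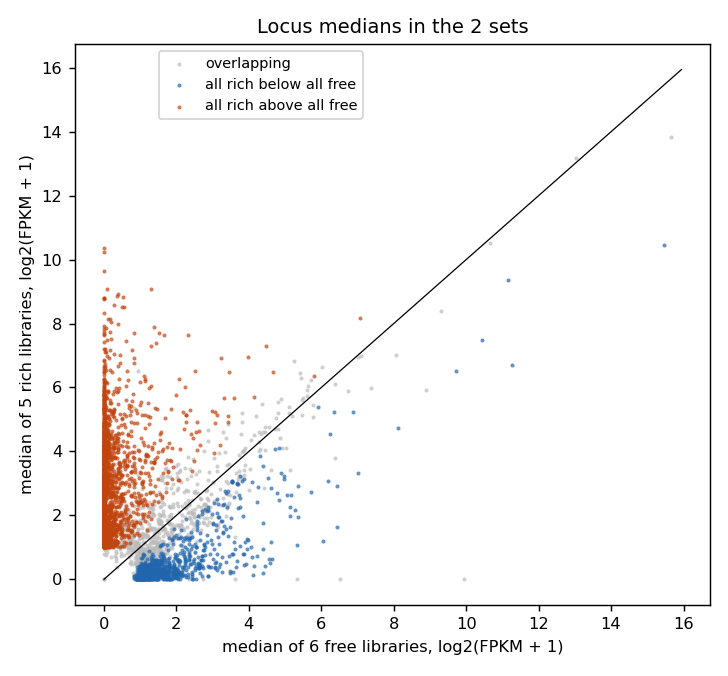
Median of the 6 free libraries (x axis) against median of the 5 rich ones (y axis), log2(FPKM + 1), 1 point per kept locus, coloured by whether the sets overlap, with the line of equality. The 1991 higher loci crowd along the y axis, and the 877 lower ones lie mostly near the x axis.

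Higher and lower loci differed in kind as well as direction. By GENCODE M21 type, lincRNAs (noncoding genes between coding genes) made up 50.1% of the higher, 14.6% of the lower and 36.0% of all kept loci. Loci marked TEC, which await experimental proof, made up 6.68%, 42.9% and 19.1% in the same order. Overlap with a coding gene on the same strand was found at 4.77% of the higher and 39.8% of the lower loci, against 15.9% of all kept loci. Without a record of strand, reads from coding RNA could not be separated at an overlap on either strand. No coding gene was overlapped by 58.8% of the higher, 24.2% of the lower and 46.1% of all kept loci. Single-exon loci were 12.5%, 56.8% and 28.8%. The median locus had 3 exons and 940.0 exonic bases among the higher loci, and 1 exon and 1932 bases among the lower. The lower side thus held mainly single-exon loci and loci that overlap coding genes. Loci on chromosome X made up 2.11% of the higher, 2.51% of the lower and 1.95% of all kept loci, and for chromosome Y the shares were 0.954%, 0.228% and 0.605%. Antisense loci had like shares on both sides, 29.6% and 23.6%, against 28.5% of all.

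The widest gap between the sets belonged to 4930570D08Rik (chrX:133898699-133901213, minus strand), a processed transcript on the X chromosome with 196 exonic bases. It stood at 599.9, 1311, 2047, 2335 and 571 FPKM in the rich libraries and is listed at 0 in all 6 free ones. An exact 0 of so short a locus could be a failed estimate, and no fold is given. The rST libraries held the most, elST and plpSC the least, and the gap on the log2(FPKM + 1) scale was 9.16.

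4930571K23Rik (chr7:125368861-125371013), a single-exon lincRNA, stood at 448, 799.8, 1745, 1880 and 411 FPKM in the rich libraries and at 0, 0.0071 and 0.385 FPKM (lowest, median, highest) in the free ones. 1700016P04Rik (chr6:13413337-13415996), a lincRNA of 2 exons, stood at 249.8, 448, 879, 875 and 258 FPKM against 0, 0 and 0.231 FPKM. For both, elST replicate 1 was the highest free library and the 2 rST libraries the highest rich ones. The lincRNA 1700052I22Rik (chr12:80923432-80924449) stood at 258, 720.3, 447, 843 and 230.4 FPKM against 0, 0 and 0.344 FPKM, and there the pacSC library exceeded rST replicate 2. 1700010D01Rik (chrX:95732586-95733265), inside Zc3h12b on the other strand with no shared exon, stood at 383, 458, 792, 691 and 383 FPKM against 0.0943, 0.428 and 1.28 FPKM. Of its 31-base stretches, 53.9% also occur in other annotated genes, most of them in Gm5941, so the level of this locus is uncertain. 1700009J07Rik (chr10:77893417-77896114) and 1700095K22Rik (chr7:3981150-3982877), both lincRNAs, closed the 8 widest gaps at 7.14 and 7.05. 1700009J07Rik stood at 145, 319, 621, 756 and 143 FPKM against 0, 0 and 0.0201 FPKM. 1700095K22Rik stood at 169, 243, 935, 599.8 and 169.7 FPKM against 0, 0 and 0.275 FPKM. All 8 loci carry RIKEN clone names, and 1 of them is 1700027A15Rik, the locus that made the sets. Their roles are not known here. Loci were ranked by their gap, so the choice itself fixed that no library crossed between sets.

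**Figure D3:**
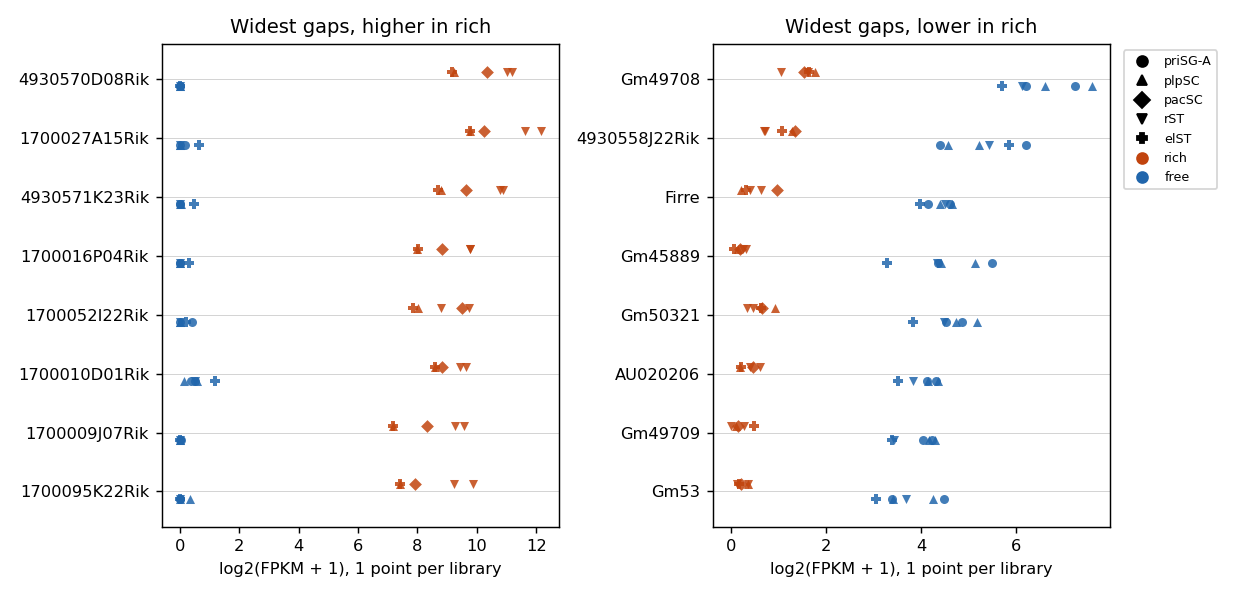
Loci with the 8 widest gaps in each direction, log2(FPKM + 1) on the x axis, 1 point per library, with shape for the label and colour for the set. In the left panel, which includes the rule locus 1700027A15Rik, an rST library lies furthest right in all 8 rows. In the right panel elST replicate 1 is the lowest free library in 7 of 8 rows.

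Of 3 other abundant loci of the rich libraries, 2 lay opposite coding genes. Gm10501 (chr17:34976899-34981788), antisense to and sharing exon sequence with Hspa1l, a heat shock protein gene of the spermatid, stood at 289, 544, 779, 1033 and 280.5 FPKM against 0.993, 1.48 and 1.99 FPKM in the free libraries. Of its 31-base stretches, 16.4% occur in other genes, most in Hspa1a. Wbscr25 (chr5:134987433-135001350), opposite the tight junction gene Cldn3 with shared exon sequence, stood at 143, 537, 658, 1067 and 157 FPKM against 0.034, 0.0559 and 0.122 FPKM. Reads on the exons shared with the coding genes could not be told apart. BC061195 (chrX:93183227-93183946) stood at 286, 488, 861, 761 and 242 FPKM against 0.0767, 0.312 and 1.38 FPKM, and 99.6% of its 31-base stretches occur in other genes, mainly 1700003E24Rik, so the level belongs to the group of copies. For Gm10501 and Wbscr25 the highest library was rST replicate 3, and for BC061195 it was rST replicate 2.

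Loci that overlap genes of the haploid phase included 1700027A15Rik, the locus that made the sets. Of 16 such loci, 9 were kept, and 6 were higher, none lower and 3 overlapping (median difference 2.20, against 1.19 over all kept loci, of which 54.8% were higher and 24.1% lower). Their summed level ran from 1231 to 5376 FPKM in the rich libraries and from 9.97 to 16.7 FPKM in the free ones, and 1700027A15Rik, which made the sets, is 1 of the 6 higher loci and supplied most of the summed level in the rich libraries. Gm44597 (chr6:125039816-125051542) shares exons with Acrbp, which encodes an acrosomal protein, and with Ing4 on the same strand. It stood at 57.4, 38.3, 28.1, 25.3 and 55.6 FPKM against 3.35, 4.22 and 6.77 FPKM. The opposite-strand locus 4930557K07Rik, over Acrbp, Ing4 and Zfp384, stood at 1.81, 5.41, 15.7, 9.09 and 2.96 FPKM against 0.164, 0.394 and 1.07 FPKM. Among the rich libraries Gm44597 was highest in plpSC and elST, and 4930557K07Rik in rST, and reads on sequence they share could not be assigned to either. Mirt2, opposite the sperm centrosome gene Spatc1, stood at 5.19, 12.6, 8.1, 9.47 and 3.98 FPKM against 0, 0 and 0.0546 FPKM. D630011A20Rik, opposite the acrosomal gene Spaca7, stood at 2.56, 4.11, 1.06, 2.26 and 2.71 FPKM and is listed at 0 in all 6 free libraries. The 3 overlapping loci were Gm20528 over Dnajb3 and the 2 entries of Tmem147os over Gapdhs, all under 5 FPKM in each library. Of 3 loci over meiotic genes, 1 was kept: 4931419H13Rik (chr3:55055242-55084002), antisense to the meiotic cyclin gene Ccna1, at 2.01, 0.613, 2.47, 0.378 and 3.12 FPKM against 0, 0.0281 and 0.0403 FPKM.

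The loci that followed 1700027A15Rik most closely over the 11 libraries were 5 lincRNAs. Pearson's r of log2(FPKM + 1) was 0.9994 for 1700052H01Rik, 0.9993 for 1700016P04Rik and 4930571K23Rik, 0.9991 for Gm27211 and 0.999 for 1700016B01Rik. With 2 sets this far apart r is near 1 for any locus that separates them evenly, so it is a description only. 1700052H01Rik (chr3:41354147-41393589) stood at 43.8, 42.9, 98.8, 78.8 and 41 FPKM against 0, 0 and 0.0499 FPKM, with both rST libraries on top. Gm27211 (chr9:73192483-73268115) stood at 10.3, 10.7, 16.8, 13.4 and 9.6 FPKM against 0, 0 and 0.0601 FPKM. 1700016B01Rik (chr5:112156237-112165244) stood at 24, 28.4, 53.1, 42.9 and 19.4 FPKM and is listed at 0 in all 6 free libraries. In each of the 3 the order was rST replicate 2, rST replicate 3, then the other rich libraries.

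Promoter sequences are shown for 1700052H01Rik, 1700016B01Rik and 4930571K23Rik of these lincRNAs, the last also having one of the widest gaps. The lower locus Gas5 (a small nucleolar RNA host described further on) is shown beside them, because the data concern loci that stood high or low together. The printed sequences are RefSeq windows of 250 bases before to 50 after a transcript start on the GRCm38.p6 assembly, all on the plus strand and 5′ to 3′, at chr3:41364148-41364447, chr5:112155977-112156276, chr7:125368611-125368910 and chr1:161034916-161035215. The RefSeq starts of 1700052H01Rik and of the printed Gas5 window lie inside the loci as deposited. Capitals mark a match to a searched motif.
1700052H01Rik: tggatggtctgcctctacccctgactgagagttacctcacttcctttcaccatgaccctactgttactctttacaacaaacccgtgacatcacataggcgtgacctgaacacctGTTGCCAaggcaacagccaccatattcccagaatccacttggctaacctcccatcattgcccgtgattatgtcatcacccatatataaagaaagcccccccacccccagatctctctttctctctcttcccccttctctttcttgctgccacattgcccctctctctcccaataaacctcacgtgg
1700016B01Rik: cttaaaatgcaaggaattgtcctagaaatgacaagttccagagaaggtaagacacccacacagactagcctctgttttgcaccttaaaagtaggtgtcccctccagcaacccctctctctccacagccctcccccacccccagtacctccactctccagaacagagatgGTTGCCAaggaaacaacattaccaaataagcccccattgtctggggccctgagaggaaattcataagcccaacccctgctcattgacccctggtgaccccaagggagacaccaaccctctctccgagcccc
4930571K23Rik: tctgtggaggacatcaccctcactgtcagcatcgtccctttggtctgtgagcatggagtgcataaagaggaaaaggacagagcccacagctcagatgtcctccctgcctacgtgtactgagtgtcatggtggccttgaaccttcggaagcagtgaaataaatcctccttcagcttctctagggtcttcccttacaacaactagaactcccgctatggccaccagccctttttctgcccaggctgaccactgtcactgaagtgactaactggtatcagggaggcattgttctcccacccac
Gas5: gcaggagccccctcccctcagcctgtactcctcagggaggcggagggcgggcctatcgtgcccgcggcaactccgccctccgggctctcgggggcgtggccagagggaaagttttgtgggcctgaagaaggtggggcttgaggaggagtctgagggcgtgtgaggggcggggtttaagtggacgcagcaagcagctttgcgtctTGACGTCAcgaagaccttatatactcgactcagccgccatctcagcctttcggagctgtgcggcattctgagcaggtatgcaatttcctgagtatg
The capitals begin 136 bases before the start in 1700052H01Rik and 81 before it in 1700016B01Rik, and both match GTTGCNA, the half-site of RFX factors. In Gas5 they begin 46 bases before the start and spell TGACGTCA, the cyclic AMP response element. 4930571K23Rik held no match in this window to any motif searched. The windows of 1700016P04Rik and Gm27211, the remaining lincRNAs of this group, held no match either and are not printed. Another Gas5 window, at chr1:161034351-161034650, is also not printed and held no match. The printed windows thus do not show how often these loci hold a motif.

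The motifs were counted over all promoters with an entry. The RefSeq table had an entry for 970 of 1990 higher symbols (1184 promoters), 168 of 877 lower ones (201 promoters) and 1362 of 3631 kept ones (1670 promoters). Both strands were searched. GTTGCNA was held by 15.1% of the higher, 6.47% of the lower and 13.7% of all kept promoters, and by 10.4% of the 32851 promoters of the whole table. TGACGTCA was held by 2.36%, 2.49%, 2.46% and 1.79% in the order higher, lower, kept and whole table. TGACGTNA, which includes TGACGTCA, was held by 3.46%, 4.98%, 3.95% and 2.93%. AACNGTT, a MYB-type motif, was held by 6.08%, 4.98%, 5.69% and 4.45%. The half-site was the motif whose share differed most between higher and lower promoters. A match is a description of letters and not a bound site.

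RIKEN clone names from adult testis libraries made up the largest named group. Of 1134 such loci, 804 were kept, and 721 were higher, 12 lower and 71 overlapping (median difference 2.57), against 54.8% higher and 24.1% lower over all kept loci. They were 36.2% of all higher loci, 1.37% of the lower and 22.1% of the kept ones. Their summed level was 15524 to 28161 FPKM in the rich libraries and 393 to 792 FPKM in the free ones. 1700027A15Rik, which made the sets, is 1 of the 721 higher members and part of that sum. The members named next had the highest median over the 11 libraries. At a higher locus that median is the highest free value, so this ranking favours members present in the free set. 1700008K24Rik (chr17:49112263-49113535) stood at 362, 266, 455, 329.8 and 397 FPKM against 0, 0.413 and 27.6 FPKM, with 27.6 and 24.8 FPKM in rST replicate 1 and elST replicate 1 and at most 0.574 FPKM in the other 4 free libraries. 1700001L05Rik (chr15:83353847-83367282) stood at 155, 144, 250.2, 244 and 139 FPKM against 11.6, 21.1 and 61.5 FPKM. 1700026F02Rik (chr8:70948246-71085758) was 1 of the 12 lower members, at 12.4, 9.02, 7.24, 8.53 and 15.1 FPKM against 24.7, 28.8 and 44.9 FPKM.

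The lower loci were led by Gm49708 (chr16:90341595-90349642), a processed transcript of unknown role here. It stood at 2.43, 1.93, 1.08, 2.1 and 2.15 FPKM in the rich libraries and at 51, 84.6 and 191 FPKM (lowest, median, highest) in the free ones, and 50.2% of its 31-base stretches occur in other genes. 4930558J22Rik (chr13:23755822-23757620), opposite the histone gene Hist1h4b with shared exon sequence, stood at 1.44, 1.54, 0.661, 0.637 and 1.12 FPKM against 20.2, 39.1 and 72.9 FPKM. Firre (chrX:50555744-50635321), an X-linked RNA that takes part in nuclear organisation, stood at 0.17, 0.961, 0.553, 0.324 and 0.247 FPKM against 14.8, 20.9 and 24.1 FPKM. For all 3 the free libraries spread by less than 4-fold, and none came near the rich ones. Gm45889 (chr7:142283210-142290418) stood at 0.12, 0.147, 0.255, 0.197 and 0.0559 FPKM against 8.79, 19.9 and 43.9 FPKM. AU020206 (chr7:75769038-75782099) stood at 0.141, 0.382, 0.526, 0.321 and 0.16 FPKM against 10.4, 16.5 and 19.5 FPKM. Gm53 (chr11:96251105-96264868) stood at 0.283, 0.159, 0.295, 0.0906 and 0.128 FPKM against 7.3, 10.7 and 21.2 FPKM. These 3 lincRNAs were all lowest, among the free libraries, in elST replicate 1. Gm50321 (chr19:9828899-9836897) and Gm49709 (chr16:90349417-90362580) completed the list with gaps of 2.91 and 2.89, and 83.3% and 23.7% of their 31-base stretches occur in other genes, Gm47547 above all.

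By level, the lower loci of at least 500 bp span were led by Gm26917, Malat1 and Gas5, together with Gm47283 and Gm11008, and the shorter Rmrp stood higher still in the free libraries. Gm26917 (chr17:39843013-39846341), a ribosomal RNA-derived locus beside AY036118, stood at 103, 134, 82.5, 63.9 and 211 FPKM against 753, 2473 and 2903 FPKM, although AY036118 overlapped between the sets. Malat1 (chr19:5795690-5802672), an abundant RNA of nuclear speckles, stood at 149, 441, 129, 287 and 179 FPKM against 763, 1377 and 3183 FPKM, the lowest free library being elST replicate 1. Gas5 (chr1:161034422-161038539) stood at 37.1, 36.6, 32.4, 29.9 and 47.8 FPKM against 86.2, 116 and 144 FPKM. Malat1 and Gas5 were thus present in every rich library at a lower level. The copies of Gm11008 (100% of 31-base stretches in other genes, mainly Gm14416) and of Gm47283 (46.8%) make their levels uncertain.

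Host genes of small nucleolar RNAs, whose introns carry guides for ribosomal RNA modification, stood low in the rich libraries. Of 28 such loci, 19 were kept, and 14 were lower, none higher and 5 overlapping (median difference -1.63, against 24.1% lower, 54.8% higher and a median of 1.19 over all kept loci). Their summed level was 78.1 to 152 FPKM in the rich libraries and 290.4 to 457 FPKM in the free ones. Snhg1 (chr19:8723475-8726443) stood at 2.04, 3.33, 2.83, 1.99 and 3.69 FPKM against 26.5, 39.98 and 54.1 FPKM. Zfas1, opposite Znfx1, stood at 1.3, 1.19, 1.23, 0.566 and 1.96 FPKM against 16.4, 23.5 and 43.2 FPKM. Snhg8 (chr3:123507552-123508404) was 1 of the 5 overlapping members, at 47.8, 48.8, 26.9, 23.4 and 50.7 FPKM against 30.6, 43.1 and 57.7 FPKM, so members of the group did not all stand low.

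Nuclear RNAs and RNAs of the X-inactivation centre gave 3 lower (Firre, Ftx, Malat1) and 2 overlapping loci (Neat1, Jpx) among 5 kept of 7, with a median difference of -1.23. Over all kept loci 24.1% were lower and 54.8% higher, with a median of 1.19. Ftx stood at 1.42, 1.66, 0.744, 0.948 and 1.17 FPKM against 3.09, 4.11 and 5.8 FPKM. Neat1, the core of paraspeckles, stood at 2.28, 4.48, 6.16, 3.01 and 5.34 FPKM against 4.75, 7.55 and 11.3 FPKM. Imprinted RNAs, which are read from 1 parental chromosome, gave 4 lower and 5 overlapping loci among 9 kept of 17 (median difference -1.35), beside the same shares of all kept loci. Snhg14, with 2 kept entries, is counted both here and among the small nucleolar RNA hosts. H19 (chr7:142575529-142578143) stood at 0.562, 0.677, 0.286, 0.81 and 0.553 FPKM against 6.44, 22.5 and 234 FPKM, a wide spread within the free libraries. Rian, which carries small nucleolar RNAs, stood at 2.28, 4.41, 2.96, 2.95 and 4.64 FPKM against 7.31, 13.2 and 19.6 FPKM. Mirg, from the same imprinted cluster as Rian, stood at 1.53, 4.36, 3.19, 3.94 and 2.15 FPKM against 0.209, 0.605 and 2.03 FPKM and overlapped. The RNA genes Rmrp (RNase MRP) and Terc (telomerase) were lower too, and their values follow with the split they share.

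**Figure D4:**
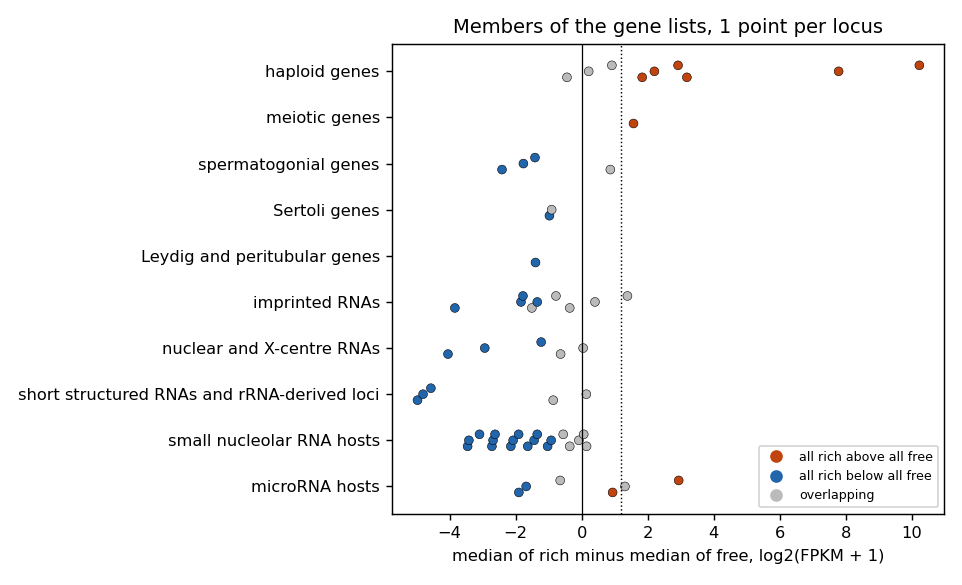
Median of the rich minus median of the free libraries, log2(FPKM + 1), for each kept locus of the gene lists, 1 point per locus, coloured by whether the sets overlap, with a solid line at 0 and a dotted line at 1.19, the median of all kept loci. The small nucleolar RNA hosts lie mostly left of 0 (14 of 19 lower), and the haploid loci mostly right (6 of 9 higher).

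Host transcripts of microRNAs went both ways, with 2 higher, 2 lower and 2 overlapping among 6 kept of 13 (median difference 0.14), against 54.8% higher and 24.1% lower over all kept loci. Mir670hg stood at 8.18, 18.1, 8.18, 17.3 and 10.9 FPKM against 0.392, 0.559 and 1.62 FPKM, and Mir9-3hg at 4.9, 6.96, 3.59, 4.81 and 4.43 FPKM against 1.65, 2.04 and 2.78 FPKM. Mir17hg, which carries a microRNA cluster tied to proliferation, stood at 0.0349, 0.265, 0.0307, 0.061 and 0.312 FPKM against 0.862, 2.97 and 3.32 FPKM. Mir22hg stood at 1.13, 1.39, 0.829, 0.885 and 1.26 FPKM against 2.57, 5.83 and 14.6 FPKM. The first 2 hosts were higher in every rich library and the last 2 lower.

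Loci over marker genes of spermatogonia and of somatic testis cells were few and low, and their counts stand beside 24.1% lower and 54.8% higher over all kept loci. Of 14 spermatogonial loci 4 were kept, with 3 lower and 1 overlapping, and their summed level was 1.53 to 4.51 FPKM in the rich and 9.12 to 27.97 FPKM in the free libraries. Gm43126, antisense to the cyclin gene Ccnd2, stood at 0, 0.414, 0, 0 and 0 FPKM against 3.35, 4.38 and 22.6 FPKM. Gm20402 and Gm38034, both over the transcription factor gene Foxo1, had medians of 2.87 and 1.76 FPKM in the free libraries and were at most 0.149 FPKM in the rich ones. Gm16277, antisense to the growth factor receptor gene Gfra1, leaned the other way and overlapped, at 4.26, 3.42, 1.52, 1.33 and 2.63 FPKM against 0.312, 0.989 and 2.29 FPKM. Both Sertoli loci were kept, and Gm47123 (antisense to Ctsl) was lower and Gm49442 (antisense to Dhh and Rhebl1) overlapping, with a summed level of 1.63 to 4.33 FPKM in the rich and 4.74 to 12.8 FPKM in the free libraries. Of 6 Leydig and peritubular loci only Gm48529, antisense to the smooth muscle gene Tagln, was kept and was lower, with a summed list level of 1.30 to 1.87 against 3.87 to 13.97 FPKM. Neither of the 2 blood and vessel loci was kept, and their sum was at most 0.0872 FPKM in each of the 11 libraries. The part of somatic cells in the lower loci was not tested.

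The rich libraries also differed among themselves. Among 719 loci with a median of at least 10 FPKM there, the median range from lowest to highest rich library was 1.41 on the log2(FPKM + 1) scale. The widest range was that of Gm29003 (chrY:66756992-66761183) on chromosome Y, at 27.2, 14.5, 11.3, 6.17 and 0.0765 FPKM, and 98.2% of its 31-base stretches occur in other genes. Gm47645 (chr12:58813883-58815197) stood at 5.33, 53, 86.3, 98.3 and 18.3 FPKM and was high in the pacSC and rST libraries. Gm13942 (chr2:111051320-111057574) stood at 36.7, 3.75, 16, 2.84 and 56.4 FPKM and was high in the plpSC and elST libraries. Gm11749 (chr11:118866257-118867220), inside Rbfox3, stood at 5.37, 44.6, 107, 53.5 and 23 FPKM. Of these 4 loci, Gm29003, Gm47645 and Gm11749 are listed at 0 in every free library. In the free set, 140 loci had a median of at least 10 FPKM, with a median range of 1.01. H19 and Gm47551 (antisense to Fcho2, 92.6% of 31-base stretches in other genes) had the widest ranges, followed by Gm5914 and Gm17300. Gm47551 is listed at 0 in 3 rich libraries and stood at 25.5 and 38 FPKM in pacSC replicate 3 and rST replicate 3, against 12.6, 90.9 and 256 FPKM in the free ones. Gm5914, opposite Ctcf, stood at 1.35, 0.475, 1.08, 0.957 and 1.26 FPKM against 2.52, 12.4 and 18.7 FPKM. Gm17300, opposite Rcc1, stood at 6.08, 4.63, 5.22, 3.91 and 6.98 FPKM against 8.97, 34.7 and 50.7 FPKM. Both were lower as deposited, and both overlapped once the libraries were rescaled, as given below.

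The other 7 libraries took different places at the 753 loci with a 4-fold higher gap. The median level there, as a percentage of the median of the rich libraries, was 9.34% in priSG-A replicate 3, which lay between the sets at 672 of the 753. It was 33.4% in pacSC replicate 1, 36.5% in pacSC replicate 2 and 34.5% in elST replicate 3, and 0.0153 to 0.188% in the priSG-B libraries. The lowest rich library was reached or passed at 197 of the 753 by pacSC replicate 1, at 214 by pacSC replicate 2 and at 208 by elST replicate 3. PriSG-B replicates 1, 2 and 3 stood no higher than the highest free library at 702, 687 and 659. Within the free set it was 0.541% in elST replicate 1 and 0.0166% in rST replicate 1. With ties counted, elST replicate 1 was the highest free library at 508 of the 753 and rST replicate 1 at 237. Loci listed at 0 in every free library are such ties and count for each of them. At the 29 loci with a 4-fold lower gap, priSG-A replicate 3 stood at 42.0% of the free median and lay between the sets at 25, and the priSG-B libraries stood at 105 to 119%. The library labelled priSG-A replicate 3 was thus the intermediate high-rRNA library on both sides.

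A split by inferred fragment length crossed both sets. Inferred from the steps of low FPKM values, a library held 31.7 to 56.4 M (mega) fragments, whose length was 200 bp in 4 libraries (priSG-A replicate 1, plpSC replicate 1, pacSC replicate 3, rST replicate 3) and 210 bp in the other 7. Lengths were searched only at set values, of which 200 and 210 bp are neighbours, so this is the smallest difference the search can give. The 200 bp libraries had 31.7 to 34.5 M fragments and the others 37.95 to 56.4 M. In both sets 179 loci (4.93%) were higher in every 210 bp library than in every 200 bp one, and 79 (2.17%) were lower. Rmrp (chr4:43492783-43493063, 281 bases) stood at 493 and 253 FPKM in the rich 200 bp libraries and at 2188, 1417 and 2855 FPKM in the rich 210 bp ones. In the free set Rmrp stood at 5423 and 5695 FPKM against 36309 to 65601 FPKM. Terc (chr3:96414437-96414833) showed the same split, at 2.23, 0.321, 1.32, 0 and 2.56 FPKM in the rich libraries, where pacSC replicate 3 and rST replicate 3 were lowest, and at 12.8 and 8.83 against 52.4 to 97.8 FPKM in the free ones. Rmrp and Terc were lower in the rich libraries within either fragment length. Between the sets, the counts within 200 bp libraries alone were 2217 higher and 1132 lower, and within 210 bp libraries alone 2102 and 1012. With the same loci and fewer libraries, these counts could not fall below the 1991 and 877 of all 11 libraries, so they are no check.

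Rescaling moved the balance between the directions. Median-ratio size factors were 0.525 to 1.08 in the rich and 1.17 to 1.38 in the free libraries, and after division by them 2157 loci were higher and 745 lower. The share of higher loci among those that did not overlap went from 69.4% to 74.3%, and the median difference over all kept loci from 1.19 to 1.42. Small nucleolar RNA hosts then had 13 lower members in place of 14, imprinted RNAs 2 higher and 3 lower, microRNA hosts 3 higher and 2 lower, haploid loci 7 higher, and spermatogonial loci 1 higher and 3 lower.

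The labels were tested over the same libraries, since the rule did not use them. Between the 5 libraries labelled rST or elST and the 6 labelled priSG-A, plpSC or pacSC, limma called 0 of 3634 loci (0% of loci tested) at an adjusted p under 0.05, with 49 at an unadjusted p under 0.05. Without the trend and robust options limma also called 0, again with 49, and with the set as a term it called 0, with 247. Unless the set is a term, the difference between the sets counts as spread in this test. Its 0 calls therefore do not show that the labels make no difference. The smallest p belonged to Gm45006 (chr7:73797603-73798292), a TEC locus higher by 1.18 ± 0.26 in log2(FPKM + 1) (SE; adjusted p = 0.752 by limma). It stood at 0.58, 0.322, 0.812, 0.837 and 2.28 FPKM in the rich libraries and at 2.62 and 2.06 FPKM in rST replicate 1 and elST replicate 1, against at most 0.0589 FPKM in the other free libraries. At Gm45006 every library labelled as spermatid lay above every one labelled as earlier among these 11. Outside them it stood at 9.91 FPKM in priSG-A replicate 3, 15.3 and 13.3 FPKM in pacSC replicates 1 and 2 and 14.8 FPKM in elST replicate 3. Within the rich set, with 3 libraries labelled as spermatids and 2 as spermatocytes, limma called 0 of 2670 loci (0%), with 61 at an unadjusted p under 0.05, and 63 without the trend and robust options, where it also called 0. The smallest p among loci spanning at least 500 bp was that of the lincRNA Gm42133 (chr5:101698133-101704063), at 3.26, 2.53, 0.529, 0.537 and 1.11 FPKM with a difference of -1.19 ± 0.34 in log2(FPKM + 1) (SE; adjusted p = 0.913 by limma).

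Within the free set the labels did separate some loci. Between the libraries labelled rST replicate 1 and elST replicate 1 and the 4 labelled priSG-A or plpSC, limma called 13 of 1609 loci (0.808%), all of them higher in the labelled spermatids, with 157 at an unadjusted p under 0.05. The filter of 1 FPKM in 3 libraries kept out any locus at that level in only the 2 labelled spermatid libraries. The count of 13 therefore leaves such loci out, and with no filter 205 of 9991 loci were called. At all 13 both labelled spermatid libraries lay above all 4 others. 1700029M20Rik (chr4:135626655-135630198), a lincRNA, stood at 21.7 and 21.3 FPKM against 0.210, 0.274, 0.432 and 1.09 FPKM, a difference of 3.94 ± 0.27 in log2(FPKM + 1) (SE, n = 2 and 4; adjusted p by limma = 0.00025, 0.00025 to 0.00252 over the settings in which it was tested). Gm2762 (chr13:53393657-53455630), a lincRNA, stood at 26.0 and 32.2 FPKM against 0.0634, 0.670, 1.25 and 1.72 FPKM (difference 4.04 ± 0.36, adjusted p by limma = 0.000669, 0.000514 to 0.0462). Gm11837 (chr4:14929908-14953030), antisense to Necab1, stood at 29.8 and 27.4 FPKM against 3.57 to 4.06 FPKM (difference 2.62 ± 0.22, adjusted p by limma = 0.000562, 0.000384 to 0.0462). At 1700029M20Rik and Gm2762 the plpSC libraries held more than the priSG-A ones, and at Gm11837 the 4 earlier libraries were near even. 1700097N02Rik (chr17:30622441-30626905), over Dnah8 and Glo1, stood at 8.05 and 10.4 FPKM against 0.715 to 1.03 FPKM (difference 2.48 ± 0.21, adjusted p by limma = 0.000562, 0.000519 to 0.00444). The other 9 called loci were Gm10505, 9330102E08Rik, Gm15543, Gm13307, 1700003G18Rik, Gm10010, Med9os, 4833445I07Rik and Crnde, with differences of 1.11 to 4.40. Of these 9, Gm15543 was called in all 10 settings that tested it (highest adjusted p by limma 0.0383). The highest adjusted p by limma over the settings was 0.215 for Gm10505 and 0.278 for 9330102E08Rik, Gm13307 and Gm10010. It was 0.436 for Med9os, 0.0744 for 1700003G18Rik, 0.118 for 4833445I07Rik and 0.141 for Crnde, and the last of these was called in 3 of 10 settings. Without rST replicate 1, or without elST replicate 1, 2 loci were called, Gm11837 and Gm2762 both times. Each of those fits has 1 labelled spermatid library, assumed to vary like the others. In both fits 6 of the 13 loci did not pass the filter and were not tested. They were 1700029M20Rik, 1700097N02Rik, Gm15543, 1700003G18Rik, 4833445I07Rik and Crnde, so their ranges of adjusted p leave these fits out.

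The 13 loci called inside the free set were also looked up in the other libraries. At 5 of the 13 (38.5%), Gm10505, 9330102E08Rik, Gm15543, Gm10010 and 4833445I07Rik, both labelled spermatid libraries of the free set stood above every rich library, against 62.9% of all 1609 loci tested. Gm10505 (chr17:27325035-27344833) stood at 28.0 and 47.4 FPKM in rST replicate 1 and elST replicate 1 and at 4.32, 8.24, 3.95, 2.87 and 12.8 FPKM in the rich libraries. At 11 of the 13 (84.6%), all but 1700003G18Rik and Med9os, elST replicate 3 and pacSC replicates 1 and 2, all low in AY036118, stood above every rich library, against 46.7% of the 1609. For 1700029M20Rik pacSC replicates 1 and 2 held 232 and 240.3 FPKM and elST replicate 3 held 231 FPKM, against 64.8, 28.3, 39.7, 21.2 and 77.5 FPKM in the rich libraries. For Gm10505 the pacSC libraries held 90.1 and 88.7 FPKM and the elST one 89.3 FPKM. The 13 loci were chosen by the label test, so these counts are descriptions.

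**Figure D5:**
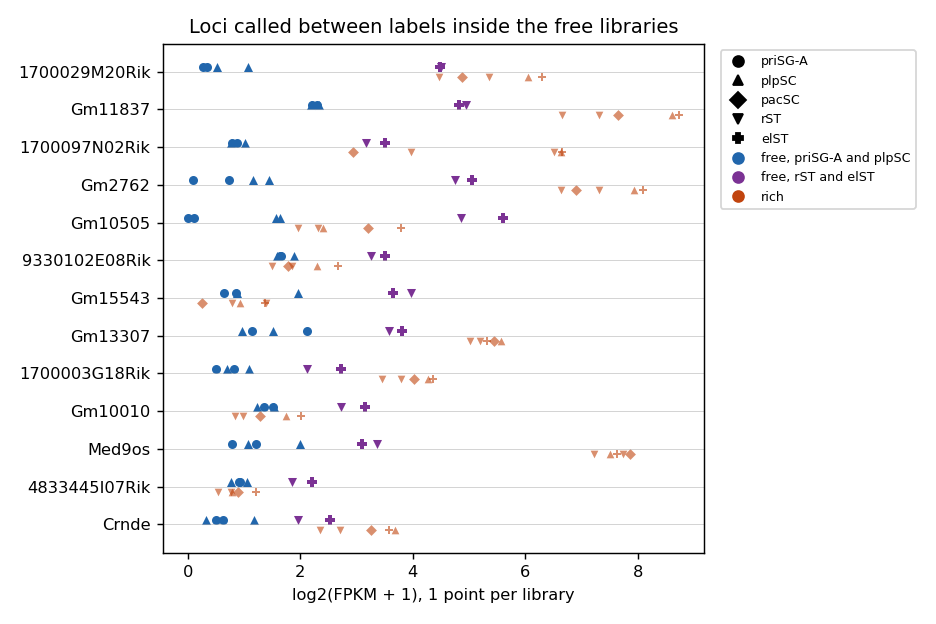
Loci called between labels inside the free set, log2(FPKM + 1) on the x axis, 1 point per library, with blue for free libraries labelled priSG-A or plpSC, purple for free libraries labelled rST or elST, and small orange points for the rich libraries. The purple points lie right of the blue ones in all 13 rows, and in 5 rows right of the orange ones too.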

How the data were processed

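The authors deposited 1 table of FPKM, with 1 column per library and 13218 loci. Per the submitters' processing notes it was made with HISAT2, StringTie and the mm10 build, with no versions given. Not given in the sources used here are the annotation, the use of strand, the filters and the FPKM denominator. Per the labels, RNA was taken up in Trizol and libraries were made with an Illumina TruSeq RNA kit.

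Libraries were put in sets by AY036118 (above 100 FPKM) and 1700027A15Rik (at least 500, or below 1 FPKM). These members, the gene lists and the tests were chosen with earlier results of these data known. A locus was called higher or lower where the sets did not overlap, and no test was run on that contrast. Label classes were compared on log2(FPKM + 1) with limma 3.58.1 in R 4.3.3 (trend, robust, two-sided, Benjamini-Hochberg over all loci tested, threshold 0.05), keeping loci at 1 FPKM in 3 of the libraries fitted. Count tests were not used because the values are FPKM. The limma script was checked on simulated data. At a change of 2 in log2(FPKM + 1), it recovered 96% of changed loci over the 11 libraries, 62% within the rich set and 88% within the free set. For the 11 libraries the simulated spread left out the difference between the sets. The real test without the set as a term contains that difference, so the 96% does not carry over to it.

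Positions and types were compared with GENCODE M21: 13191 identifiers were found there and 27 were not, with identical coordinates for 13098. Positions are 1-based on mm10. Named loci, of at least 500 bp span, were the 8 widest gaps each way, the 6 highest levels each way, up to 3 members per list, the 4 widest ranges in each set, up to 4 called loci per label test and each direction (or the smallest p), the 5 most like 1700027A15Rik and the 2 rule loci. The other members of lists, the remaining loci called inside the free set and Gm48573, Gm28872 and Gm30781 fall outside this rule, having been picked once their values were known. Where a paragraph does not say otherwise, free values are the lowest, median and highest of 6 libraries.

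Depth was inferred from FPKM steps of single-exon loci. Within a tolerance of 0.05 reads, 96.9 to 97.9% of low values were whole, and on simulated data depth was recovered within 0.781%. No pair of libraries was alike within counting error (lowest chi-square per degree of freedom 13.2). That pair was rST replicate 1 and elST replicate 1, the labelled spermatids of the free set, and the next lowest pair stood at 43.6. No label says that a replicate number pairs libraries, so the label tests have no block. Alternatives covered the pseudocount, the filter, scaling, limma's options, a replicate block and leaving out each library. Python 3.11.15, numpy 2.4.6, pandas 2.3.3, scipy 1.17.1 and matplotlib 3.10.9 were used.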

Additional observations from a re-analysis of the deposited data

Results flagged for a closer look

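Of 92 sets of values looked at, 4 held a library far from the others of its set, by a gap test that flags about 1 set in 20 by chance. All 4 lay in the free libraries. H19 stood at 234 FPKM in priSG-A replicate 1, against 6.44 to 82.4 FPKM in the other 5. Gm43126, antisense to Ccnd2, stood at 22.6 FPKM in the same library, against 3.35 to 9.80 FPKM, and Gm48529, antisense to Tagln, at 9.00 FPKM, against 2.89 to 4.62 FPKM. Mir22hg stood at 14.6 FPKM in plpSC replicate 2, against 2.57 to 6.15 FPKM.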

How the results depend on the processing

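The counts of loci higher and lower in the rich libraries moved with the filter and the size of the gap. With 5 FPKM in 3 libraries as the filter they were 1025 and 183 of 1418 loci, and with no filter 3088 and 2338 of 11833. The main counts were 1991 and 877 of 3634, and with a gap of at least 4-fold 753 and 29 of the same 3634. The filters keep different numbers of loci, so the counts do not share 1 total. A filter on the mean over the 11 libraries, chosen after seeing the data, left 1568 higher and 509 lower of 2679 loci. Leaving out each library gave 1995 to 2042 higher and 878 to 927 lower. The loci were kept the same there, so these counts could not fall below the 1991 and 877 of all 11 libraries. Under size factors the gap of Gm5914 became -0.031 and that of Gm17300 -0.52, so both overlapped.

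Within the free set the label test called 13 of 1609 loci. With the filter at 5 FPKM in 3 libraries it called 0 of 359 (23 at an unadjusted p under 0.05). A locus high in only the 2 labelled spermatid libraries cannot pass that filter. With no filter it called 205 of 9991 (204 higher, 1 lower). Of the 1609 loci it called 9 with a pseudocount of 0.1, 15 with quantile normalization and 11 without limma's trend and robust options. With the fragment length split as a term, chosen after seeing the data, it called 11 of 1609. Leaving out each library gave 2 to 10. The label test over 11 libraries called 0 under every alternative run. Quantile normalization moved the median log2 fold change from 0.25 to 0.02 there and from -0.13 to 0.02 within the rich set. Leaving out each library within the rich set gave 0 to 1 call: Gm30781, with 216 exonic bases, without plpSC replicate 3, and Gm28872, with 158, without pacSC replicate 3, each against 1 remaining library that is assumed to vary like the others.

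With the replicate number as a block, limma called 0 of 3634 loci over the 11 libraries (1367 at an unadjusted p under 0.05). It called 1 of 2670 within the rich set (Gm48573, 177 exonic bases) and 125 of 1609 within the free set (76 higher, 49 lower). The classes share 1 number in each of the last 2 fits. Deviations of same-numbered libraries correlated at -0.82 to -0.76 in the 4 pairs that cross the sets and at 0.74 to 0.91 in the 6 pairs within a set, so whether the numbers pair the libraries could not be told. Depth was inferred from FPKM steps, so no counting error is given for single values.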
